A study of Mus musculus with 6 samples.

Results

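The genes described here are 33 that mark macrophages, out of 31384 genes counted in RNA from cultures of mouse spermatogonial stem cells. They were chosen from earlier results of the same 6 libraries, in which macrophage markers lay high in cultures without GDNF (glial cell line-derived neurotrophic factor). Their differences between groups are therefore given as a description, and no test on them supports anything. All 33 were matched by symbol to the Ensembl identifiers of the deposited table, and all 33 passed the filter on low counts that left 16121 genes tested.

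The cultures came from a mouse spermatogonial stem cell line on mitomycin C-treated mouse embryonic fibroblasts (MEF), in StemPro-34 medium with 10 ng/mL EGF, 10 ng/mL FGF2 and LIF. The PTC group also received 10 ng/mL GDNF, the factor on which self-renewal of these cells depends. The NTC group lacked GDNF, and in the LOVA group 5 µM lovastatin, a statin that inhibits HMG-CoA reductase, stood in place of GDNF. Each group had 2 libraries, collected on day 18. All groups thus shared the cell line, the feeders, EGF, LIF and FGF2. The labels state no separate line, animal or culture for the libraries of a group, so p-values measure only the spread between these libraries, which may be technical. They name no step that separated feeder cells from germ cells before RNA was made. A and B, which name the libraries of a group, are letters of the columns in the deposited table.

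Macrophages arise and survive under the colony-stimulating factor 1 receptor (Csf1r) and the transcription factor PU.1 (Spi1). Many of their surface receptors carry no signalling tail of their own and pair with the adaptors Tyrobp and Fcer1g, whose immunoreceptor tyrosine-based activation motifs (ITAMs) recruit the kinase Syk. What the cells engulf is broken down in phagosomes and lysosomes by lysozyme, cathepsins and oxidants of the NADPH oxidase. In the testis, macrophages lie between and on the tubules, close to the spermatogonia.

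PU.1 binds purine-rich DNA around a GGAA core, so the promoters of the genes were searched for it as a feature that their choice did not use. RefSeq windows on build GRCm38.p6, from 250 bases before to 50 bases after a transcription start, covered 24 of the 33 genes; the genes not covered were Csf1r, Spi1, Ms4a6d, Adgre1, Clec4n, Tyrobp, Cd83, Cd14 and Itgb2. The letters GAGGAA, on either strand, were in the windows of 17 of the 24 genes (70.8%), against 31.3% of 27025 genes with a window in the same table. The longer form GAGGAAGT, which contains GAGGAA, was in 2 of 24 (8.33%, Cd53 and Ctss), against 3.69% of all genes. In the 100 bases just before a start, 9 of the 24 members held GAGGAA, and the share over all genes was 11.2%. A gene could have several starts, and any of them counted. For example, the starts used for Fcgr3 and Tbxas1 lie inside the annotated genes (171051174 to 171064935 and 38875404 to 39084585). The stretches of these 9 members are shown because they hold the motif upstream and close to a start. Each runs 5′ to 3′ on the strand of its gene, with GAGGAA or its reverse complement TTCCTC in capitals.
Fcgr3 (chr1:171059404-171059503, minus strand): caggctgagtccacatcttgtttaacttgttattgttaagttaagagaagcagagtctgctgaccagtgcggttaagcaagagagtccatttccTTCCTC
Fcgr1 (chr3:96293970-96294069, minus strand): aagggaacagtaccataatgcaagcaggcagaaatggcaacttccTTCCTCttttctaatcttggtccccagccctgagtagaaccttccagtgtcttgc
Cd53 (chr3:106790150-106790249, minus strand): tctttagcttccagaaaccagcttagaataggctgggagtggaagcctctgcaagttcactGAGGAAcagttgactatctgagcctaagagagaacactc
Laptm5 (chr4:130913216-130913315, plus strand): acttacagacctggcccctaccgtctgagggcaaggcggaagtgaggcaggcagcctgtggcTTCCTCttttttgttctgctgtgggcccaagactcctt
Tbxas1 (chr6:38918886-38918985, plus strand): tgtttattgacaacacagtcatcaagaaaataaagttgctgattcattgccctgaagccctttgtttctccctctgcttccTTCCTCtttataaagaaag
Clec5a (chr6:40585806-40585905, minus strand): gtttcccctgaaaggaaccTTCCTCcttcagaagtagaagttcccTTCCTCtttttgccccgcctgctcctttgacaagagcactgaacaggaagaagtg
Itgam (chr7:128062540-128062639, plus strand): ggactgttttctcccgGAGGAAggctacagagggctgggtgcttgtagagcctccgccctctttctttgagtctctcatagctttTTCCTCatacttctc
Gpr65 (chr12:98268535-98268634, plus strand): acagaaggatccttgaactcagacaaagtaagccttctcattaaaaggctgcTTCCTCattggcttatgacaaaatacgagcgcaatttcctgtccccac
Aif1 (chr17:35176053-35176152, minus strand): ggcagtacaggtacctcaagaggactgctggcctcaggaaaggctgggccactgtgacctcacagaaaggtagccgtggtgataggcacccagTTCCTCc

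Clec5a and Itgam held the letters at 2 places in these 100 bases. For Fcgr3 and Aif1 the motif lay within the last 7 bases before the start used. For the other letters searched on both strands, TATAAA was in 7 of 24 windows (29.2%, against 15.7% of all genes). The AP-1 letters TGANTCA were in 4 (16.7%, against 8.97%: Ms4a7, Cd68, Cybb and Tbxas1). The C/EBP letters TTGCGCAA were in 0 of 24, against 0.207% of all genes. A match is a description of these letters only, since binding was not measured in these libraries. Some members also lie near each other in the genome (mm10, GENCODE M21). On chromosome 1, the Fc receptor genes Fcgr2b (170958617 to 170976547), Fcgr3 (171051174 to 171064935) and Fcer1g (171229572 to 171234365) lie apart on the minus strand of the same region. Cd48 (171682009 to 171705258) lies beyond them. On chromosome 19, Ms4a7 (11321039 to 11336146), Ms4a6d (11586604 to 11604849) and Mpeg1 (12460779 to 12465283) lie within the same stretch.

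Total counts ranged from 12454671 to 22668087 per library, and 3 counts corresponded to between 0.132 and 0.241 CPM, which are counts scaled to a common library total. The levels below are CPM with totals adjusted by TMM, a trimmed mean over genes. The labelled cell type was checked against 14 pan-germ-cell markers such as Ddx4 and Dazl, whose summed level lay between 1832 and 4801 CPM in every library. That sum was 4687 and 4801 CPM in the PTC libraries, 2751 and 1933 CPM in NTC, and 3199 and 1832 CPM in LOVA. The sum of 17 fibroblast markers of the feeder type was 1264 and 5268 CPM in PTC, 17100 and 30788 CPM in NTC, and 14340 and 30142 CPM in LOVA, so that PTC B stood 4.17-fold above PTC A. In every group library B had the larger fibroblast sum.

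Together the 33 genes made up 0.0369% and 0.0315% of all counts in the PTC libraries, 0.235% and 0.295% in NTC, and 0.0529% and 0.0623% in LOVA. Their summed level was 325.5 ± 29.7 CPM in PTC, 2742 ± 577 CPM in NTC and 592 ± 108 CPM in LOVA (SD, n = 2 in each). NTC was thus 8.42-fold above PTC and 4.63-fold above LOVA, and LOVA was 1.82-fold above PTC, with no overlap between the libraries of any pair of groups. Lyz2, which encodes the lysozyme of macrophages, took 57.1% to 66.5% of the members' counts in each library. Without Lyz2 the same ratios were 6.75, 4.50 and 1.50. In bulk RNA, fewer macrophages and less of each RNA per macrophage cannot be told apart.

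**Figure D1:**
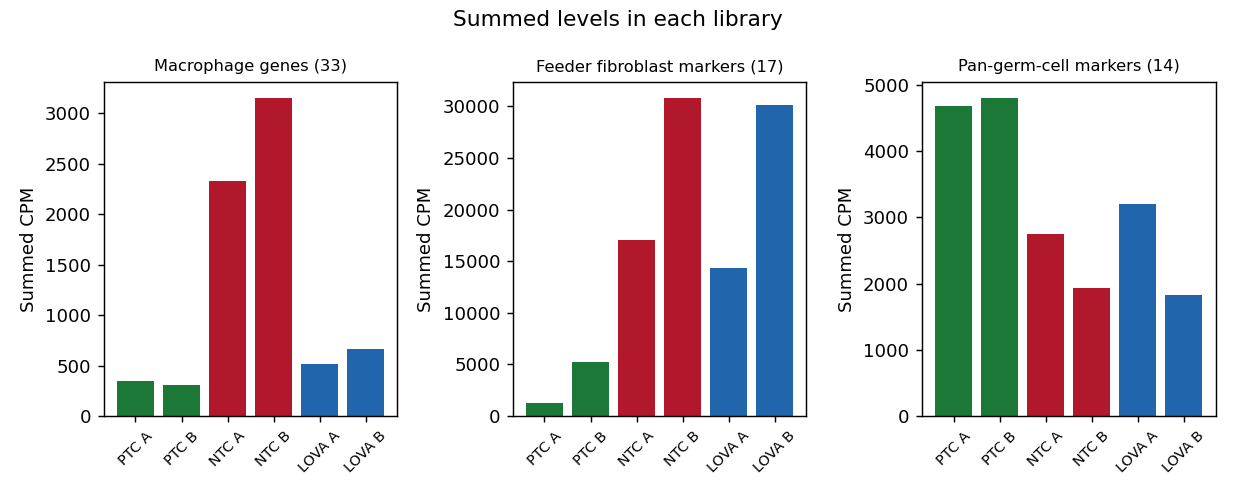
Summed level (CPM, linear axis from 0) of the 33 macrophage genes, of 17 fibroblast markers and of 14 pan-germ-cell markers in each of the 6 libraries, 1 bar per library. The macrophage sum is highest in NTC A and NTC B (2334 and 3151 CPM) and lower in both LOVA libraries (516 and 668 CPM), while the fibroblast sums of NTC and LOVA overlap.

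The fibroblast sum was higher in NTC than in PTC, as the macrophage sum was, while between NTC and LOVA the fibroblast sums overlapped. As a share of the fibroblast sum, the macrophage sum was 27.4% in PTC A, 5.78% in PTC B, 13.7% in NTC A, 10.2% in NTC B, 3.60% in LOVA A and 2.22% in LOVA B. Both LOVA libraries lay below both NTC libraries on this scale, and the PTC libraries lay on either side of NTC. The part of the feeder cells in the PTC values was not tested.

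Without GDNF, 32 of the 33 genes had higher fitted levels than with it (NTC minus PTC), and the exception was Coro1a. By edgeR's quasi-likelihood test with Benjamini-Hochberg adjustment over all genes tested, 30 were called higher and 0 lower, at an adjusted p under 0.05. Of all genes, 21.5% were called higher in this contrast, from which the members had been chosen, so nothing is read from the count. The median log2 fold change was 2.92 (7.57-fold), with a range of -0.61 to 3.93, beside a median of -0.02 over all genes tested. The genes not called were Fcgr1, Cd48 and Coro1a. Both NTC libraries lay above both PTC libraries for 32 members, an order that 39% of all genes tested showed. All 30 calls were lost when NTC B was left out, which left 0 members and 1 gene of all called higher, although the median over the members was then still 2.65.

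With lovastatin in place of GDNF, all 33 genes lay below the NTC culture without either (LOVA minus NTC), at a median log2 fold change of -2.29 (4.88-fold lower). Both LOVA libraries were below both NTC libraries for 33 of 33 members, against 13% of all genes tested. No member was called: edgeR's quasi-likelihood test called 0% of all genes lower in this contrast, and the smallest adjusted p among members was 0.0589. At an unadjusted p under 0.05 there were 31 members and 561 genes in all. DESeq2 called 24 members lower, among 95 genes of all called lower, and edgeR without the filter on low counts 28 among 147. On library totals without TMM, edgeR called 6 members among 15 genes, and limma-voom called 3 among 9. This contrast and NTC minus PTC share the NTC libraries.

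Set against the GDNF culture, LOVA lay in between (LOVA minus PTC). Fitted levels were higher in LOVA for 27 members and lower for Fcgr1, Ccr1, Gpr65, Lcp1, Coro1a and Tbxas1, all 6 of which turned positive under scaling to the 14 pan-germ-cell markers. The median was 0.81 (1.76-fold), with 20 members above PTC without overlap, against 38.4% of all genes tested. Cybb, Cd53, Adgre1, Clec4n, Fcgr2b and Lyz2 were called higher, beside 19.8% of all genes, and Coro1a was called lower, beside 10.8%. None of the 6 higher calls held without LOVA B, and that of Coro1a was lost without any 1 of the 6 libraries. The 6 were not called without PTC A either, and without PTC B only Cd53 among them was. The members' median was then 0.74 and 0.72.

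**Figure D2:**
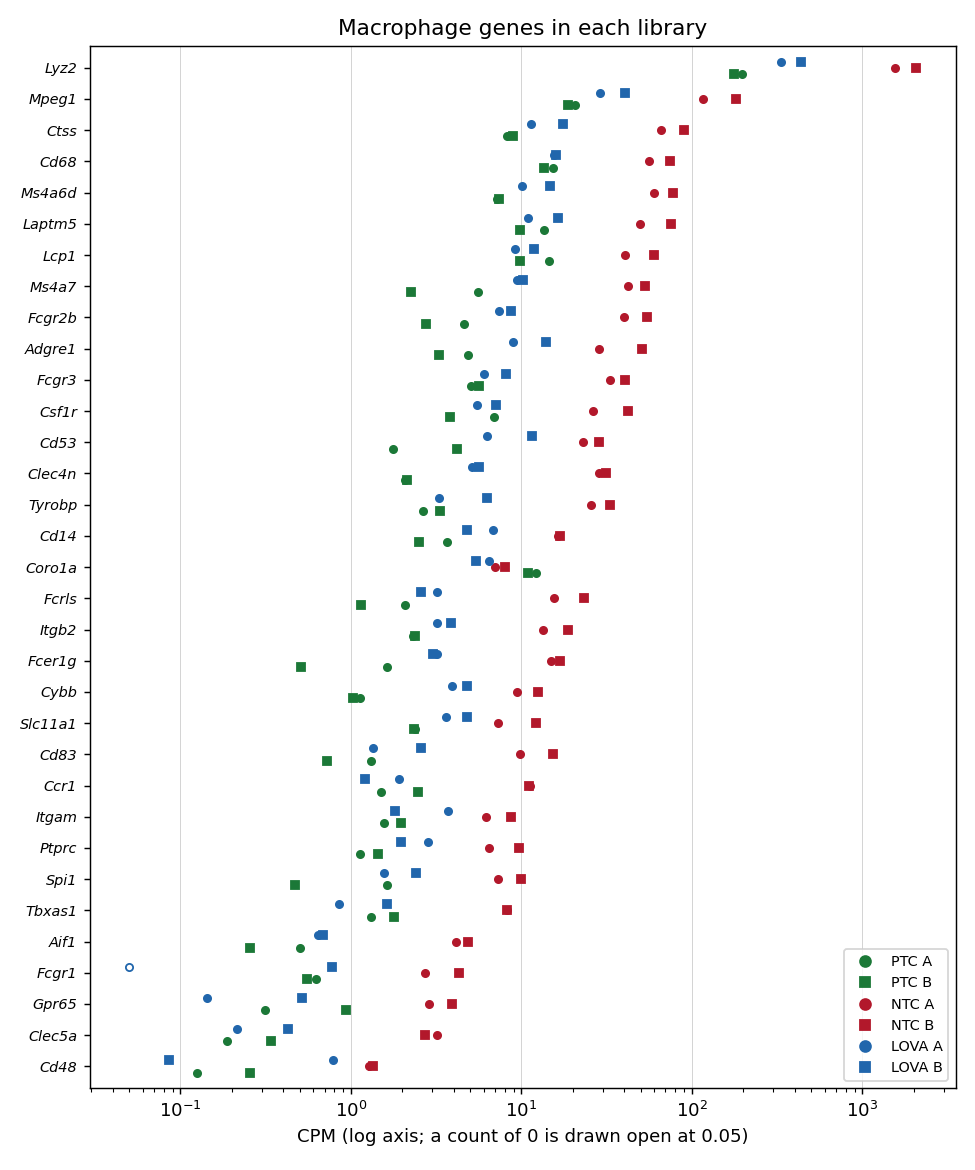
Level of each of the 33 genes (CPM, log axis) in the 6 libraries, coloured by group, with the genes ordered by mean level; a level of 0 is drawn as an open symbol at 0.05. NTC libraries lie to the right for 32 genes, Coro1a has its highest levels in PTC, and the single 0 is Fcgr1 in LOVA A.

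Spi1, which encodes PU.1, lay at 1.63 and 0.469 CPM in PTC, 7.25 and 9.99 CPM in NTC, and 1.57 and 2.41 CPM in LOVA. Its log2 fold change was 3.08 ± 0.62 (SE) in NTC over PTC and -2.12 ± 0.60 in LOVA over NTC. Csf1r lay at 6.90 and 3.79 CPM in PTC, 26.4 and 42.1 CPM in NTC, and 5.48 and 7.05 CPM in LOVA. Csf1r overlaps the gene Hmgxb3, with which reads could be shared. For both genes the NTC libraries stood apart above the other 4, and the PTC and LOVA libraries overlapped. For Csf1r, the difference between LOVA and PTC was 0.24 on the log2 scale, with a 95% interval of -0.70 to 1.17.

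The ligands of Csf1r showed another pattern. Csf1, the growth factor of macrophages, lay at 11.0 and 42.0 CPM in PTC, 178 and 282 CPM in NTC, and 137 and 307 CPM in LOVA. It rose in NTC over PTC by a log2 fold change of 3.11 ± 0.71 (SE; edgeR adjusted p = 0.023) and in LOVA over PTC by 3.06 ± 0.71 (edgeR adjusted p = 0.027). Between NTC and LOVA its libraries overlapped, at -0.05 with a 95% interval of -1.63 to 1.53. Il34, the other ligand, lay at 0.188 and 1.32 CPM in PTC, 7.17 and 5.09 CPM in NTC, and 3.49 and 7.31 CPM in LOVA, and was likewise called higher in NTC and in LOVA than in PTC. Lovastatin cultures thus held Csf1 and Il34 RNA at levels that overlapped those of NTC, while their Csf1r level overlapped that of the GDNF culture. Csf2, which encodes the cytokine GM-CSF, had 0 counts in all 6 libraries. Its receptor chain Csf2rb lay in the order of the members, at 0.756 ± 0.527 CPM in PTC, 5.57 ± 1.34 CPM in NTC and 0.922 ± 0.398 CPM in LOVA (SD, n = 2). The other chain, Csf2ra, lay at 2.45 and 2.34 CPM in PTC, 3.51 and 4.96 CPM in NTC, and 3.13 and 4.30 CPM in LOVA. Its NTC and LOVA libraries thus overlapped.

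Among the ITAM adaptors and Fc receptors, the median of 6 genes was 3.45 in NTC over PTC, -2.59 in LOVA over NTC and 0.77 in LOVA over PTC. Fcer1g, the adaptor of activating Fc receptors, showed the largest difference of all members between NTC and PTC, 3.93 ± 0.54 (SE, log2). Its level was 14.9 and 16.8 CPM in NTC, against 1.63 and 0.511 CPM in PTC and 3.20 and 3.01 CPM in LOVA. Tyrobp, the adaptor known as DAP12, lay at 25.5 and 33.3 CPM in NTC and between 2.63 and 6.28 CPM in the other 4 libraries. The inhibitory receptor Fcgr2b and the activating receptor Fcgr3 stood at similar levels in NTC (40.2 and 54.2 CPM, and 33.1 and 40.7 CPM). Fcgr2b had the larger fold in NTC over PTC, at 3.69 ± 0.34 against 2.78 ± 0.28 (SE, log2), and this difference between genes was not tested. Of their 50-base exon words, 9.58% of those of Fcgr3 and 4.38% of those of Fcgr2b occur in other genes, so counts could be split between them. Fcrls, a receptor-like relative of the Fc receptors, lay at 15.5 and 23.4 CPM in NTC and at 3.20 CPM or less elsewhere. Fcgr1, the high-affinity receptor for IgG, was the scarcest of the group, with 34 and 67 counts in NTC, 10 and 13 in PTC, and 0 and 9 in LOVA.

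The kinase machinery below these receptors was less uniform. Of 15 tested genes of ITAM signalling outside the members, 9 were called higher in NTC than in PTC, beside 21.5% of all genes. None was called lower, and the median was 1.85. In LOVA minus NTC edgeR called 0, at a median of -1.52. Trem2, a receptor that pairs with Tyrobp, lay at 35.4 and 37.0 CPM in NTC against 4.90 to 6.54 CPM in the other libraries. Sirpa, an inhibitory receptor, rose in NTC over PTC by 1.65 ± 0.26 (SE, log2; edgeR adjusted p = 0.01). Syk itself lay between 22.0 and 31.9 CPM in all 6 libraries. Plcg2, a phospholipase activated by Syk, lay at 106 and 98.8 CPM in PTC and at 68.1 CPM or less in the other libraries.

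Lectins and pattern receptors followed the same order. Clec4n, the fungal lectin receptor Dectin-2, lay at 28.4 and 31.3 CPM in NTC, 2.07 and 2.13 CPM in PTC, and 5.13 and 5.68 CPM in LOVA, and stood 0.90 (log2) above the members' median in NTC over PTC. Cd14, a coreceptor for bacterial lipopolysaccharide, lay at 16.4 and 16.9 CPM in NTC and was less reduced in LOVA than most members, at -1.51 ± 0.33 (SE, log2). Clec5a, a lectin that signals through Tyrobp, lay at 3.19 and 2.71 CPM in NTC and at 0.43 CPM or less in PTC and LOVA.

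For the integrins and leukocyte surface proteins, the median of 7 genes was 2.76 in NTC over PTC and -1.73 in LOVA over NTC. Adgre1, the adhesion receptor most used to stain mouse macrophages, lay at 28.7 and 50.7 CPM in NTC, 4.83 and 3.28 CPM in PTC, and 8.90 and 13.9 CPM in LOVA. Itgb2, the beta chain of leukocyte integrins, lay at 13.4 and 18.6 CPM in NTC and between 2.32 and 3.87 CPM elsewhere. Its partner Itgam overlaps the readthrough gene Gm49368, which shares 66.3% of its 50-base exon words and had 0 counts in every library. Itgam lay at 6.21 and 8.64 CPM in NTC against 1.57 to 3.70 CPM in the other libraries. Ptprc, the phosphatase CD45 found on all white blood cells, lay at 6.45 and 9.67 CPM in NTC and between 1.13 and 2.85 CPM elsewhere. The tetraspanin Cd53 lay at 22.9 and 28.5 CPM in NTC and at 6.27 and 11.5 CPM in LOVA, above its 1.76 and 4.18 CPM in PTC. Cd83, an activation antigen, lay at 9.80 and 15.3 CPM in NTC and at 2.58 CPM or less in the other libraries. Cd48 was near the limit of detection in LOVA B, at 0.086 CPM, and reached 1.35 CPM at most.

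Ccr1, a chemokine receptor, and Gpr65, a receptor that senses protons, lay more than 2 SE below the members' median in LOVA over PTC. Coro1a, Tbxas1, Lcp1 and Cd68 did so too. In LOVA over NTC neither Ccr1 nor Gpr65 lay that far from the median. The log2 fold changes of Ccr1 and Gpr65 in LOVA over NTC were -2.82 ± 0.43 and -3.38 ± 0.82 (SE), and in LOVA over PTC -0.35 ± 0.43 and -0.997 ± 0.85. Ccr1 lay at 11.2 and 11.0 CPM in NTC, 1.51 and 2.47 CPM in PTC, and 1.92 and 1.20 CPM in LOVA. Gpr65 had the lowest LOVA values of the pair, 0.142 and 0.516 CPM, close to the level of 3 counts. The membrane proteins Ms4a7 and Ms4a6d were among the abundant members. Ms4a7 lay at 5.58 and 2.26 CPM in PTC, 42.0 and 53.3 CPM in NTC, and 9.40 and 10.1 CPM in LOVA. Ms4a6d lay at 7.21 and 7.37 CPM in PTC, 59.9 and 77.7 CPM in NTC, and 10.1 and 14.6 CPM in LOVA. For both, the 3 groups did not overlap, in the order PTC, LOVA, NTC.

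The lysosomal and phagosomal genes held the 4 members with the highest mean CPM, Lyz2, Mpeg1, Ctss and Cd68. Lyz2 (ENSMUSG00000069516; chromosome 10, 117277331 to 117282321, minus strand) lay at 198 and 177 CPM in PTC, 1552 and 2068 CPM in NTC, and 333 and 437 CPM in LOVA. Of its 50-base exon words, 15.4% occur in other genes, among them its neighbour Lyz1, which had 0 to 16 counts per library. Mpeg1, a pore-forming protein of phagosomes, lay at 20.8 and 18.7 CPM in PTC, 116 and 182 CPM in NTC, and 28.9 and 40.5 CPM in LOVA. Ctss, the cathepsin of antigen-presenting cells, lay at 8.28 and 8.95 CPM in PTC, 65.9 and 90.2 CPM in NTC, and 11.4 and 17.5 CPM in LOVA. For these 3 genes LOVA lay above PTC and below NTC without overlap. Cd68, a glycoprotein of late endosomes, lay at 15.2 and 13.6 CPM in PTC, 56.1 and 74.0 CPM in NTC, and 15.6 and 16.0 CPM in LOVA. Laptm5, a lysosomal membrane protein of blood cells, lay at 13.6 and 9.80 CPM in PTC, 49.5 and 75.3 CPM in NTC, and 11.0 and 16.3 CPM in LOVA. For Cd68 and Laptm5 LOVA stood close to PTC, with log2 differences of 0.13 (95% interval -0.39 to 0.65) and 0.22 (-0.54 to 0.99). For Cd68, too, LOVA lay above PTC without overlap. The intervals of Mpeg1 (0.16 to 1.47) and Ctss (0.08 to 1.41) overlapped these, and differences between genes were not tested. Slc11a1, a metal transporter of phagosomes, showed a small difference for a member in both contrasts with NTC, at 2.03 ± 0.39 and -1.20 ± 0.38 (SE, log2).

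Per kilobase of exon, the level of Lyz2 in NTC was 1375 ± 278 CPM per kilobase (SD, n = 2), far above the next, Ctss at 57.5 ± 12.7, Cd68 at 51.8 ± 10.1, Tyrobp at 44.1 ± 8.24 and Ms4a6d at 39.7 ± 7.25. These 4 followed one another within their spread. In PTC the order after Lyz2 (142 ± 11.4) began with Cd68 at 11.5 ± 0.9 and Ctss at 6.34 ± 0.35 CPM per kilobase, and Coro1a, at 4.15 ± 0.319, ranked 7 among the 33 genes against 24 in NTC. In CPM, 22 members had a mean of at least 10 in NTC, against 6 in PTC and 8 in LOVA.

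Cybb, the catalytic subunit of the phagocyte NADPH oxidase, kept more of its NTC level under lovastatin than most members. It lay at 1.13 and 1.02 CPM in PTC, 9.48 and 12.4 CPM in NTC, and 3.92 and 4.82 CPM in LOVA. The difference between LOVA and PTC was 2.02 ± 0.37 (SE, log2), the largest among the 33 genes. The partner subunits outside the members differed among themselves. All 5 were called higher in NTC than in PTC, beside 21.5% of all genes, at a median of 2.69. Only Cyba was called higher in LOVA than in PTC, beside 19.8% of all genes. Cyba, which forms the membrane pair with Cybb and is made by many cell types, lay at 14.1 and 16.8 CPM in PTC, 75.8 and 73.1 CPM in NTC, and 45.4 and 63.5 CPM in LOVA. The cytosolic subunit Ncf1 lay at 2.32 and 1.79 CPM in PTC, 15.8 and 20.8 CPM in NTC, and 3.85 and 3.96 CPM in LOVA. In LOVA over NTC the fitted log2 differences were -0.45 ± 0.22 for Cyba, -2.23 ± 0.32 for Ncf1, -1.95 ± 0.68 for Ncf4 and -2.17 ± 0.42 for Rac2 (SE), and edgeR called none of the list in that contrast.

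The actin and eicosanoid genes held the member that went against the rest. Coro1a, an actin regulator of leukocytes, lay at 12.2 and 10.9 CPM in PTC, 7.01 and 8.06 CPM in NTC, and 6.48 and 5.42 CPM in LOVA. Its log2 fold changes were -0.61 ± 0.28 in NTC over PTC, -0.34 ± 0.29 in LOVA over NTC and -0.95 ± 0.29 in LOVA over PTC (SE), and under scaling to the pan-germ-cell markers the values against PTC turned to 0.46 and 0.03. The 3′ end of Coro1a overlaps Bola2 on the other strand over a short stretch, and the sources used here do not say whether counting used strand, so counts in that stretch are uncertain; Bola2 itself differed by 0.21 (log2) in NTC over PTC. The correlation of Coro1a with the mean standardised profile of the members was -0.31 over the 6 libraries, while the other 32 lay between 0.840 and 0.999, as a description of libraries that the choice of members had used. Lcp1, the actin bundler L-plastin, lay at 14.4 and 9.76 CPM in PTC, 40.4 and 60.3 CPM in NTC, and 9.12 and 11.9 CPM in LOVA. Aif1, the microglial marker also called IBA1, was scarce, at 4.14 and 4.84 CPM in NTC and at 0.688 CPM or less in PTC and LOVA. Tbxas1, thromboxane synthase, lay at 8.29 and 8.19 CPM in NTC and between 0.855 and 1.79 CPM elsewhere.

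**Figure D3:**
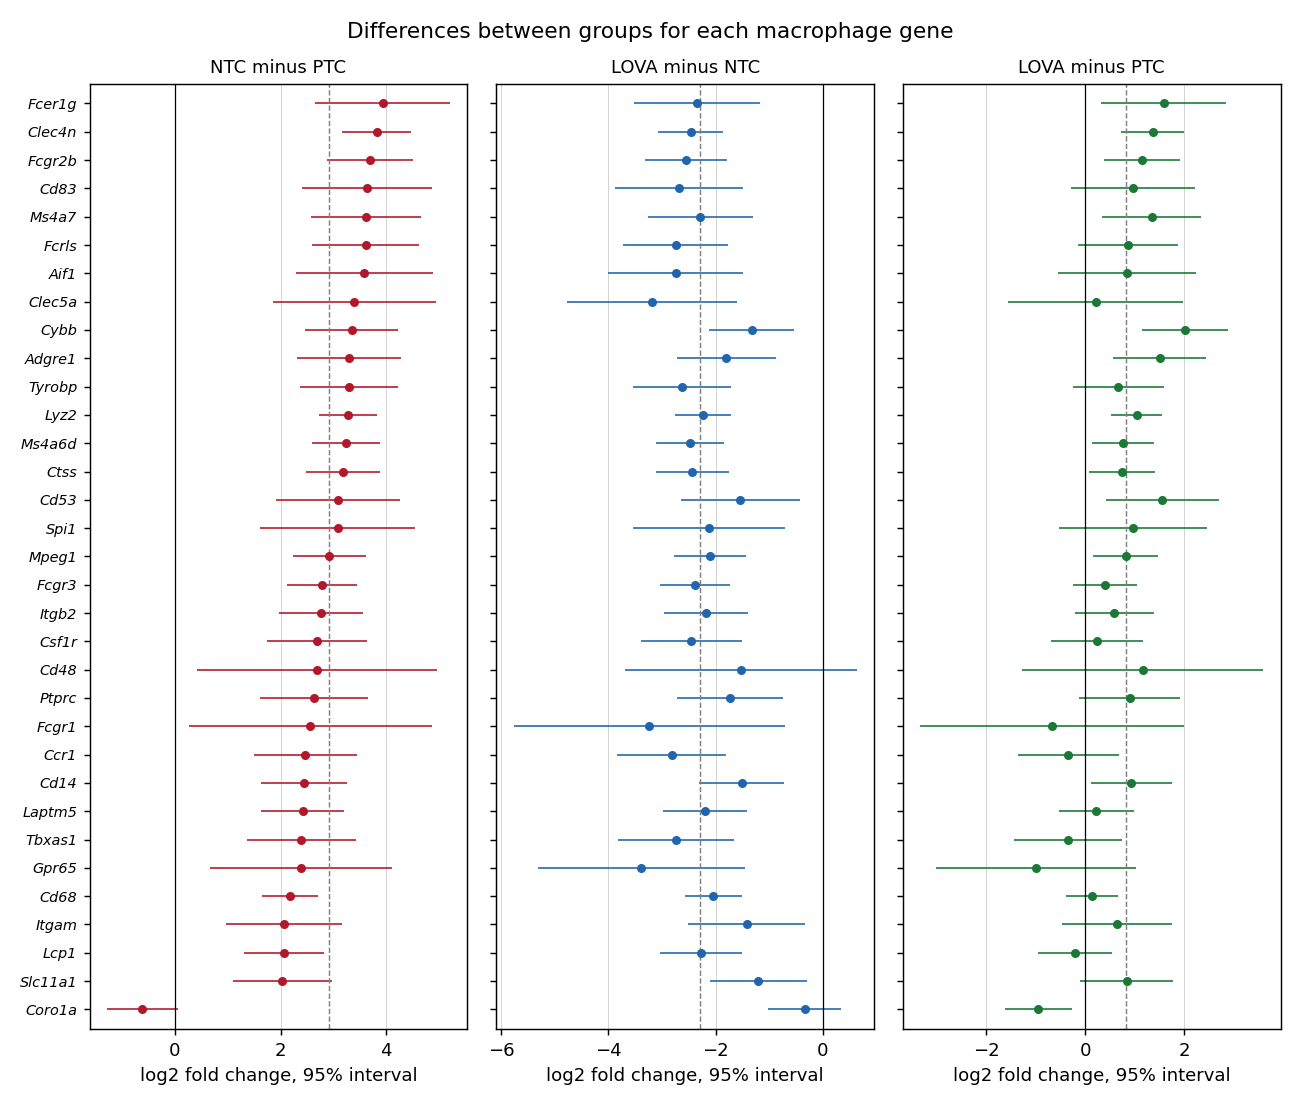
Log2 fold change of each of the 33 genes with its 95% interval in the 3 contrasts (NTC minus PTC, LOVA minus NTC, LOVA minus PTC), with a dashed line at the median of the members. The points gather around medians of 2.92, -2.29 and 0.81, and Coro1a lies apart from the median in each contrast.

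Most members lay within 2 of their own SE of the median difference, a range that is wide for members with a large SE. Fcer1g, for example, stood 1.01 (log2) above the median in NTC over PTC, at an SE of 0.54. In NTC over PTC, 6 of the 33 lay more than 2 SE from the median: Clec4n and Fcgr2b above it, and Cd68, Lcp1, Slc11a1 and Coro1a below it. In LOVA over NTC there were 4, all less reduced than the median: Cd14, Cybb, Slc11a1 and Coro1a. In LOVA over PTC there were 8, with Cybb and Clec4n above the median and Cd68, Lcp1, Tbxas1, Ccr1, Coro1a and Gpr65 below it. The counts were equal when the median was taken over the 8 members with a mean of at least 20 CPM.

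Most tested macrophage surface and secreted genes outside the 33 also lay highest in NTC. The filter on low counts left 21 of the 26 counted, without Cd163, Ccr2, Vsig4, Timd4 and Ly86. Scarce genes such as Clec4e (0.251 and 0.170 CPM in PTC, 2.95 and 4.32 CPM in NTC) could pass it through NTC alone. The counts thus lean towards genes high in NTC. Of the 21, 17 were called higher in NTC than in PTC, beside 21.5% of all genes, and 0 lower, at a median of 2.67. In LOVA over NTC the median was -2.09 with 21 of 21 below 0, and edgeR called 0, beside 0 of all genes. In LOVA over PTC the median was 0.35, with 14 genes above 0 and 7 below. Of the 21, 2 were called higher and 1 lower, beside 19.8% and 10.8% of all genes. Among the most abundant, Apoe, an apolipoprotein, rose from 165 and 187 CPM in PTC to 583 and 781 CPM in NTC (edgeR adjusted p = 0.0079) and stood at 146 and 173 CPM in LOVA. Gpnmb, a glycoprotein of lysosome-rich phagocytes, lay at 54.2 and 50.6 CPM in PTC, 289 and 457 CPM in NTC, and 94.1 and 164 CPM in LOVA, and was called higher in both NTC and LOVA than in PTC. Mrc1, the mannose receptor, lay at 14.8 and 13.6 CPM in PTC, 77.4 and 140 CPM in NTC, and 16.0 and 27.4 CPM in LOVA. Lyve1, a hyaluronan receptor of some tissue macrophages, was instead called lower in LOVA than in PTC (-1.83 ± 0.54, SE, log2; edgeR adjusted p = 0.044), and Lilrb4a, an inhibitory receptor, was called higher there (3.07 ± 0.72; edgeR adjusted p = 0.026).

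Transcription regulators of macrophages other than Spi1 were mixed in the lovastatin cultures. Of 13 tested, 10 were called higher in NTC than in PTC and 8 higher in LOVA than in PTC, beside 21.5% and 19.8% of all genes. The median of LOVA over NTC was -0.26. The most abundant of the list, Id3 and Klf4, are made by fibroblasts too, and stood at 247 to 395 CPM and 142 to 229 CPM across the NTC and LOVA libraries. Among the scarce genes of the list, Tfec and Ikzf1, regulators of blood cell lineages, lay below NTC in LOVA without overlap, as most members did, though neither was called. Tfec lay at 1.35 and 2.77 CPM in NTC and 0.285 and 0.430 CPM in LOVA, and Ikzf1 at 1.83 and 3.61 CPM in NTC and 1.07 and 0.602 CPM in LOVA. Irf8, an interferon-family regulator that myeloid progenitors depend on, was highest in PTC, at 51.4 and 55.3 CPM, against 33.9 and 20.6 CPM in NTC and 34.6 and 16.1 CPM in LOVA, and was not called in any contrast.

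Lysosomal genes of most cell types also kept high levels in LOVA. All 15 were called higher in NTC than in PTC, beside 21.5% of all genes, at a median of 1.56. In LOVA over PTC 12 of 15 were called higher, beside 19.8% of all genes, and the median of LOVA over NTC was -0.38. Ctsd, an aspartic protease, lay at 569 and 627 CPM in PTC, 1856 and 2436 CPM in NTC, and 1306 and 1783 CPM in LOVA. Ctsl lay at 1268 and 1605 CPM in NTC and at 860 and 1262 CPM in LOVA, with no overlap but close values, whereas Ctss of the members was lower by -2.43 on the log2 scale in LOVA over NTC. Of 10 cytoskeletal genes of blood cells, 9 were called higher in NTC than in PTC, beside 21.5% of all genes, at a median of 2.58. Their median of LOVA over NTC was -2.05. The abundant Arpc1b, an actin nucleator subunit of most cells, differed by only -0.18 ± 0.18 there, and Plek, a substrate of protein kinase C in blood cells, by -1.66 ± 0.36 (SE, log2). Arhgdib and Lsp1 of the same list differed by -0.55 ± 0.39 and -0.62 ± 0.37 in LOVA over NTC. Both were called higher in LOVA than in PTC by edgeR, as Arpc1b was.

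**Figure D4:**
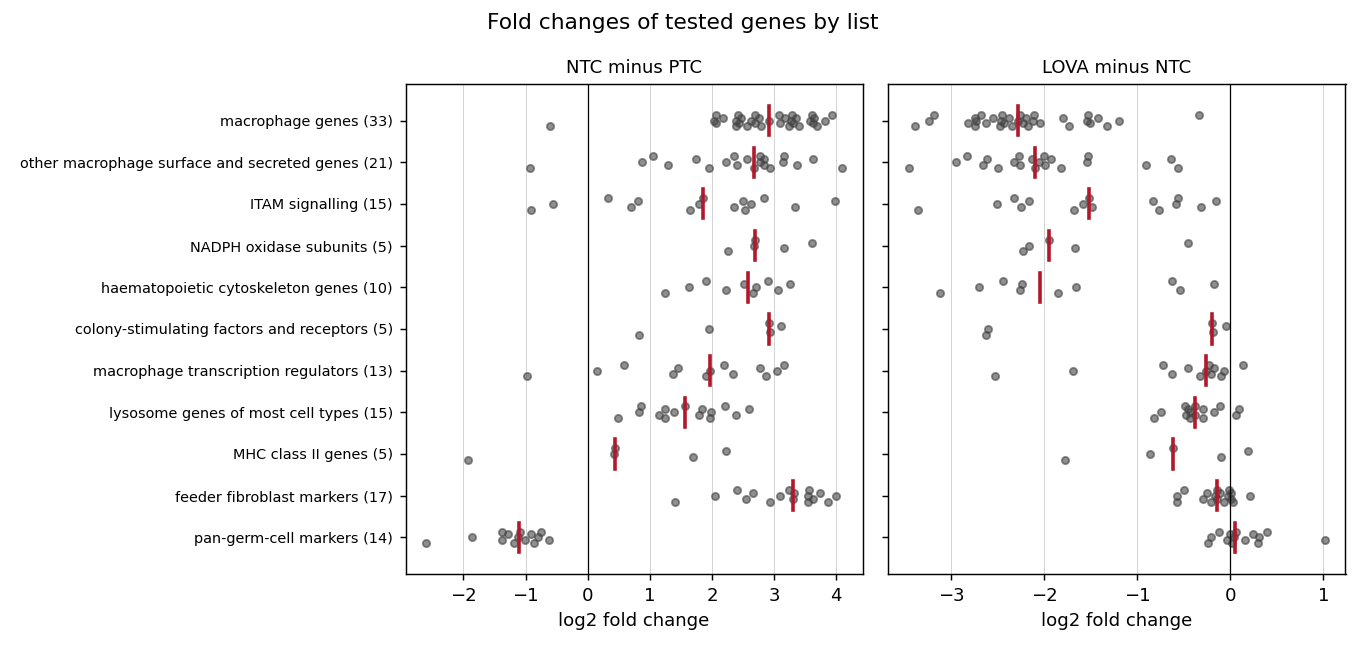
Log2 fold change of each tested gene by gene list, for NTC minus PTC and LOVA minus NTC, with a bar at the median of each list. The members and the other macrophage surface genes have medians of -2.29 and -2.09 in LOVA minus NTC, while the regulators as a list, the general lysosomal genes and the fibroblast markers have medians between -0.38 and -0.14.

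The fibroblast markers of the feeder type, given again beside the macrophage genes, had 14 of 17 called higher in NTC than in PTC, at a median of 3.30. In LOVA over PTC 13 of 17 were called higher, at a median of 3.10. Of all genes, 21.5% and 19.8% were called higher in these contrasts. The fibroblast markers' median in LOVA over NTC was -0.14. Of the 14 pan-germ-cell markers 6 were called lower in each contrast with PTC, at medians of -1.10 and -1.09. Of the 16121 genes tested, 2086 were called lower in NTC and 1747 in LOVA. Scaled to those markers, the median of all genes moved to 1.03 in NTC over PTC and 1.02 in LOVA over PTC, and the members' medians to 4.04 and 1.84. In LOVA over NTC the median of all genes was then -0.04, and all 33 members stayed below 0.

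Markers of neutrophils and of lymphoid and mast cells were low. The sum of 9 neutrophil markers such as S100a8 was at most 4.39 CPM in any library, that of 5 B cell markers at most 2.07 CPM, that of 5 NK cell markers at most 0.384 CPM and that of 5 mast cell markers at most 0.322 CPM. The sum of 7 T cell markers was 12.9 and 12.3 CPM in PTC and at most 5.13 CPM elsewhere, nearly all of it Lck, a kinase that was called lower in NTC than in PTC. Of these 5 sums, that of the mast cell markers was highest in NTC B and the others in a PTC library. The sum of 6 dendritic cell markers was larger, at 33.2 and 24.97 CPM in PTC, 22.9 and 17.6 CPM in NTC, and 18.9 and 16.4 CPM in LOVA. Most of it was Zbtb46, at 28.5 and 21.3 CPM in PTC and at 19.5 CPM or less elsewhere, while Siglech and Cd209a had 0 counts in every library, and none of the 3 genes tested was called. Of the erythroid and platelet markers, Pf4, a chemokine that macrophages make as well as platelets, was called higher in NTC, at 1.20 and 2.90 CPM against 0.285 CPM or less in the other libraries. Among endothelial markers, Pecam1 was called lower and Emcn higher in NTC than in PTC. Clu, which many cell types make, was the single Sertoli marker called.

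The genes whose levels ran most like those of the members were ranked over the 6 libraries by the Pearson correlation of log2 CPM with the members' mean standardised profile, among 11338 genes with a mean of at least 5 CPM. The 10 highest were C1qb (0.996), C1qa, Ncf1, Pira2, Trem2, Alox5ap, Entpd1, Pirb, Adam8 and Mrc1 (0.988). Of these, Pira2, Alox5ap, Entpd1 and Adam8 were in none of the lists above. C1qb, a chain of complement C1q, lay at 9.41 and 9.55 CPM in PTC, 78.6 and 90.7 CPM in NTC, and 12.4 and 17.5 CPM in LOVA. Adam8, a metalloprotease of myeloid cells, lay at 9.66 and 12.7 CPM in PTC, 49.6 and 70.3 CPM in NTC, and 13.5 and 17.6 CPM in LOVA. The 6 points fall into 3 groups of 2 libraries, and the correlations carry no p.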

How the data were processed

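Bulk RNA-seq libraries from 3 groups of 2 were analysed. The deposited table holds a raw count of reads per Ensembl gene, in whole numbers and not normalized. The submitters' processing notes name Trimmomatic, RSEM, Bowtie2, DESeq2 and the mouse build mm10, without versions or roles, so whether the deposited counts are rounded RSEM estimates is not given in the sources used here. Libraries were made with a directional kit and read as paired ends of 150 bases, per the labels' protocols. Symbols came from GENCODE M21 (31363 of 31384 identifiers matched), and 7358 genes had no count in any library. Groups came from the deposited column names, whose letters A and B are not paired with the labels' replicate numbers.

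Genes were filtered with filterByExpr, libraries scaled by TMM, and a model of 3 group means fitted to all 6 libraries with edgeR 4.0.16 (quasi-likelihood, robust; R 4.3.3), with 3 residual degrees of freedom and a common biological coefficient of variation of 0.26. A call means p under 0.05 after Benjamini-Hochberg adjustment over all 16121 genes tested. The method was tested on simulated data, in which far fewer genes changed than were called between NTC and PTC. The outcome of that test is not reported here. Alternatives were DESeq2 1.42.0, limma-voom (limma 3.58.1), other scalings, no filter, a block by column letter and each library left out. The members, the 21 other lists (202 genes, 1 not analysed here) and the tests were chosen with earlier results of these data known. Levels in every library were given for members whose mean CPM reached 20 and for Spi1 and Csf1r, and for other members by range or sentence; the other lists gave up to 4 abundant genes, and those called where 5 or fewer were. Further genes named with values outside this rule, such as Ctsl, Tfec, Ikzf1, H2-Aa and Csf2, were chosen after their values were seen. Promoters came from the RefSeq table of GRCm38.p6. Protein sequences were not used here. No molecular identifiers are named, so floors of 3 counts cover counting error alone. Some genes that the rule or the lists took are not reported here; counts include them.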

Additional observations from a re-analysis of the deposited data

How the results depend on the processing

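Under 12 alternatives, all 33 members kept a negative difference in LOVA minus NTC. Leaving out each library in turn, members called higher in NTC minus PTC ranged from 0 (without NTC B) to 32 and their median from 2.65 to 3.21; for all genes, calls ranged from 1 to 3635 higher and from 0 to 3091 lower. In LOVA minus NTC the members' median ranged from -2.50 to -2.08, and from 0 to 2 of all genes were called lower. In LOVA minus PTC members called higher ranged from 0 (without LOVA B; 2 without PTC A, 1 without PTC B) to 10, those called lower from 0 to 0, their median from 0.55 to 0.81, and calls over all genes from 628 to 3580 higher and from 57 to 3174 lower. Scaled to the pan-germ-cell markers, the members' medians against PTC were 4.04 (NTC) and 1.84 (LOVA), members called in LOVA minus PTC were 12 higher and 0 lower, genes of all called were 4909 higher and 37 lower in NTC minus PTC and 4435 higher and 29 lower in LOVA minus PTC, and Coro1a turned to 0.027 in LOVA minus PTC. In LOVA minus NTC, where the main test called 0, members and all genes called lower were 24 and 95 with DESeq2, 28 and 147 without the filter, 6 and 15 with library totals only, and 3 and 9 with limma-voom; genes called higher were 25, 44 and 1 with DESeq2, without the filter and with limma-voom. Without the filter, 2703 genes were called lower in LOVA minus PTC. The shorter motif GAGGAA was in 17 members against 2 for GAGGAAGT. The cause of these shifts was not tested. Groups of 2 libraries limit the precision throughout.

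Column letters pair nothing in the labels: deviations of libraries A and B correlated between groups at 0.31, 0.35 and 0.48. With a replicate block by letter, 21 members and 72 genes of all were called lower and 18 genes higher in LOVA minus NTC, 12 members were called higher in LOVA minus PTC, and genes of all called were 4421 higher and 3632 lower in NTC minus PTC and 4280 higher and 3466 lower in LOVA minus PTC. Under scaling to the germ cell markers, 6 members with negative differences in LOVA minus PTC turned positive, 1 of them called (Coro1a); members above and below 0 there were 28 and 5 without LOVA A, and 25 and 8 without LOVA B.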

Other observations

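Genes of MHC class II, which present antigen on activated macrophages and on dendritic cells, differed among themselves. The sum of 7 of them lay between 9.55 and 13.0 CPM in all 6 libraries. The median log2 fold change of the 5 tested was 0.44 in NTC over PTC and -0.62 in LOVA over NTC. Most of the sum was H2-DMa, a chaperone of peptide loading, at 6.02 and 5.54 CPM in PTC, 7.01 and 8.51 CPM in NTC, and 8.69 and 9.03 CPM in LOVA. H2-Aa, a chain of the class II molecule itself, lay in NTC above PTC and LOVA without overlap at levels near the limit of detection, 1.04 and 0.838 CPM against 0.427 CPM or less, and was not called. H2-Ab1, the partner chain, lay at 0.125 and 0.256 CPM in PTC, 1.27 and 0.645 CPM in NTC, and 0.997 and 0.774 CPM in LOVA, and was not called either. Cd74, the invariant chain, lay at 4.33 and 2.60 CPM in PTC, 1.12 and 0.709 CPM in NTC, and 0.712 and 0.258 CPM in LOVA, and was called lower in both other groups than in PTC by edgeR.

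Among osteoclast markers, Ctsk, a collagen-cleaving cathepsin that fibroblasts also make, rose from 4.26 and 16.3 CPM in PTC to 98.6 and 112 CPM in NTC and lay at 63.9 and 90.2 CPM in LOVA. Mmp9, a gelatinase, was called lower in NTC and in LOVA than in PTC, at 24.3 and 16.0 CPM in PTC, 3.90 and 4.32 CPM in NTC, and 5.70 and 3.44 CPM in LOVA.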
